A study of Mus musculus with 24 samples.

Results

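The striatal medium spiny neuron genes described here were Drd1, Tac1, Drd2, Adora2a, Penk, Ppp1r1b, Rgs9 and Pde10a, 8 of the 33000 genes in the count table, taken by their symbols. They were measured by 3'Pool-seq in the frontal cortex of 3 WT mice and 3 GFAP-IL6 mice, all C57BL/6 and 3 months old, with 24 libraries in all. The GFAP-IL6 mice were homozygous for a transgene in which the astrocyte promoter of Gfap drives Il6, an inflammatory cytokine, and no other allele or treatment was given for either group. Every mouse is present in a set A and a set B, each tagmented from 2 ng and from 1 ng of cDNA (4 libraries per mouse), and what divides A from B is not given in the labels. The question was how these genes varied together over the 24 libraries and between GFAP-IL6 and WT mice.

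Medium spiny neurons are the GABAergic projection neurons of the striatum, which lies beneath the cortex. Those of the direct pathway carry the dopamine D1 receptor (Drd1) and the tachykinin precursor of substance P (Tac1). Those of the indirect pathway carry the dopamine D2 receptor (Drd2), the adenosine A2a receptor (Adora2a) and proenkephalin (Penk), the precursor of the enkephalins. Ppp1r1b, Rgs9 and Pde10a act inside the cells of both pathways. The protein of Ppp1r1b inhibits protein phosphatase 1 once protein kinase A has phosphorylated it, that of Rgs9 speeds the switching off of G protein signals, and that of Pde10a degrades cAMP and cGMP. None of these genes is exclusive to the striatum, since cortical interneurons can express Penk and Tac1, and cortical neurons also express Ppp1r1b, Drd1 and Pde10a.

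In 3'Pool-seq reverse transcription starts from the polyA tail, so the counts of a gene come from its 3' end. On mm10, in GENCODE vM21, Penk spans chr4:4133531-4138819, Tac1 chr6:7554879-7565834, Drd2 chr9:49340627-49408177 and Adora2a chr10:75316877-75334784. Ppp1r1b spans chr11:98348404-98357796, Rgs9 chr11:109225355-109298129, Drd1 chr13:54051183-54055705 and Pde10a chr17:8525372-8986648. Drd1, Penk and Rgs9 lie on the minus strand and the others on the plus strand. Exons of Penk and of Ppp1r1b overlap those of an antisense gene each (A830012C17Rik and 1700003D09Rik), and the strand setting of the counting is not given in the sources used here, so reads of these partners could not be told apart. An annotated end of 4 of the genes is shown, as the kind of site next to which such counts are taken. The windows of Drd2 and Penk are from the principal transcript, those of Rgs9 and Pde10a are from another, that of Pde10a lies before the annotated end of the gene, and which ends the reads came from is not in the count table. Each window lies in the last exon, in the 3' UTR, and the capitals mark the polyA signal AATAAA, searched on the transcript strand only, within the last 60 bases of the annotated transcript. All 8 genes had a protein-coding transcript with this signal. Of all 48042 protein-coding transcripts with a complete end 49.9% had it, which is a share of transcripts and not of genes. The share of all genes with any such transcript was not determined, so the 8 of 8 has no background beside it.
Drd2 (Drd2-201, plus strand, chr9:49408143-49408172): aaccAATAAAaccttgacaagagtcattcc
Penk (Penk-201, minus strand, chr4:4133534-4133563): atatAATAAAcccgtgaccccaactgcaca
Rgs9 (Rgs9-201, minus strand, chr11:109225355-109225383): aaacAATAAAagggtcacctggagaaatt
Pde10a (Pde10a-206, plus strand, chr17:8982372-8982400): agaaAATAAAagtaaggcatataaatttc

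The libraries held between 1524165 and 12256374 counts, and the sums of the 4 libraries of a mouse held 7852743 (WT mouse 3) to 37582644 (GFAP-IL6 mouse 3). Levels below are CPM (counts scaled to the library size, with TMM scaling), and the mouse is the replicate (n = 3 per genotype). In tests where each mouse gives a single value, p-values measure the spread between these mice. As a check of the genotype labels, Gfap lay between 15.9 and 23.5 CPM in the WT mice and between 80.5 and 146 CPM in the GFAP-IL6 mice, and Il6 between 0 and 0.261 CPM and between 1.59 and 4.23 CPM. As a check of the tissue label, all 11 cortical excitatory neuron markers were measured, with a summed level of 1050 to 1130 CPM in every mouse. WT mouse 3 stood apart by its choroid plexus markers (5 of 5 highest there), which summed to 4060 CPM against 82.2 to 753 CPM in the other mice. WT mouse 2 stood apart by the striatal genes themselves, as described below.

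The indirect pathway receptors were at or near the limit of detection. Drd2 had no count in any of the 24 libraries, 0 of 112945479 counts in all, which allows a level of up to 0.0266 CPM. Among the protein-coding genes 4849 of 21958 (22.1%) were also at 0 in every library. Drd2 was listed with an exon length of 1549 bases, 998 fewer than the 2547 bases of vM21, where its 3' UTR alone takes 1086 bases, and the median protein-coding gene was 462 bases shorter in the table than in vM21. Tac1 was listed 2169 bases shorter than in vM21 and had 5374 counts in all. The remaining members were listed 102 (Drd1) to 662 (Pde10a) bases shorter. The part of the listed length in the absence of Drd2 counts was not tested. Adora2a had 39 counts in all, between 0 and 5 per library, and 9 libraries had none. Summed by mouse, Adora2a had 2, 15 and 4 counts in WT mice 1, 2 and 3, and 2, 7 and 9 counts in GFAP-IL6 mice 1, 2 and 3. The highest of these levels was that of WT mouse 2, 0.831 CPM against at most 0.522 CPM elsewhere, a difference of few counts. Neither gene passed the filter on low counts, which left 6 of the 8 genes for the tests between genotypes. The intervals and limits given for counts cover counting error only, because PCR reads without molecular identifiers are not independent molecules.

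Among the direct pathway genes, Drd1 was at 7.40, 14.9 and 6.52 CPM in WT mice 1, 2 and 3, and at 7.35, 8.0 and 8.71 CPM in GFAP-IL6 mice 1, 2 and 3. Tac1 was at 41.2, 62.6 and 33.0 CPM in the WT mice and at 45.1, 46.5 and 46.8 CPM in the GFAP-IL6 mice, in the same order. In both genes WT mouse 2 was the highest of the 6 mice and WT mouse 3 the lowest, and the 3 GFAP-IL6 mice lay between them. Penk, of the indirect pathway, was at 73.1, 167 and 66.8 CPM in the WT mice and at 83.0, 99.5 and 81.6 CPM in the GFAP-IL6 mice. Its level in WT mouse 2 was 1.68 times that of the next mouse, and the other WT mice were the lowest.

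Of the intracellular signalling genes, Ppp1r1b was at 144, 209 and 131 CPM in the WT mice and at 131, 151 and 110 CPM in the GFAP-IL6 mice. Rgs9 was at 5.84, 19.3 and 4.57 CPM in the WT mice and at 6.40, 8.38 and 7.63 CPM in the GFAP-IL6 mice. WT mouse 2 was highest in both, and for Rgs9 its level was 2.31 times that of the next mouse and 2.95 times the mean of the other 5. Pde10a had another order. It was at 22.6, 33.8 and 30.7 CPM in the WT mice and at 43.8, 42.7 and 49.2 CPM in the GFAP-IL6 mice. All 3 GFAP-IL6 mice exceeded all 3 WT mice in Pde10a, and WT mouse 2 was the highest only among the WT mice.

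**Figure D1:**
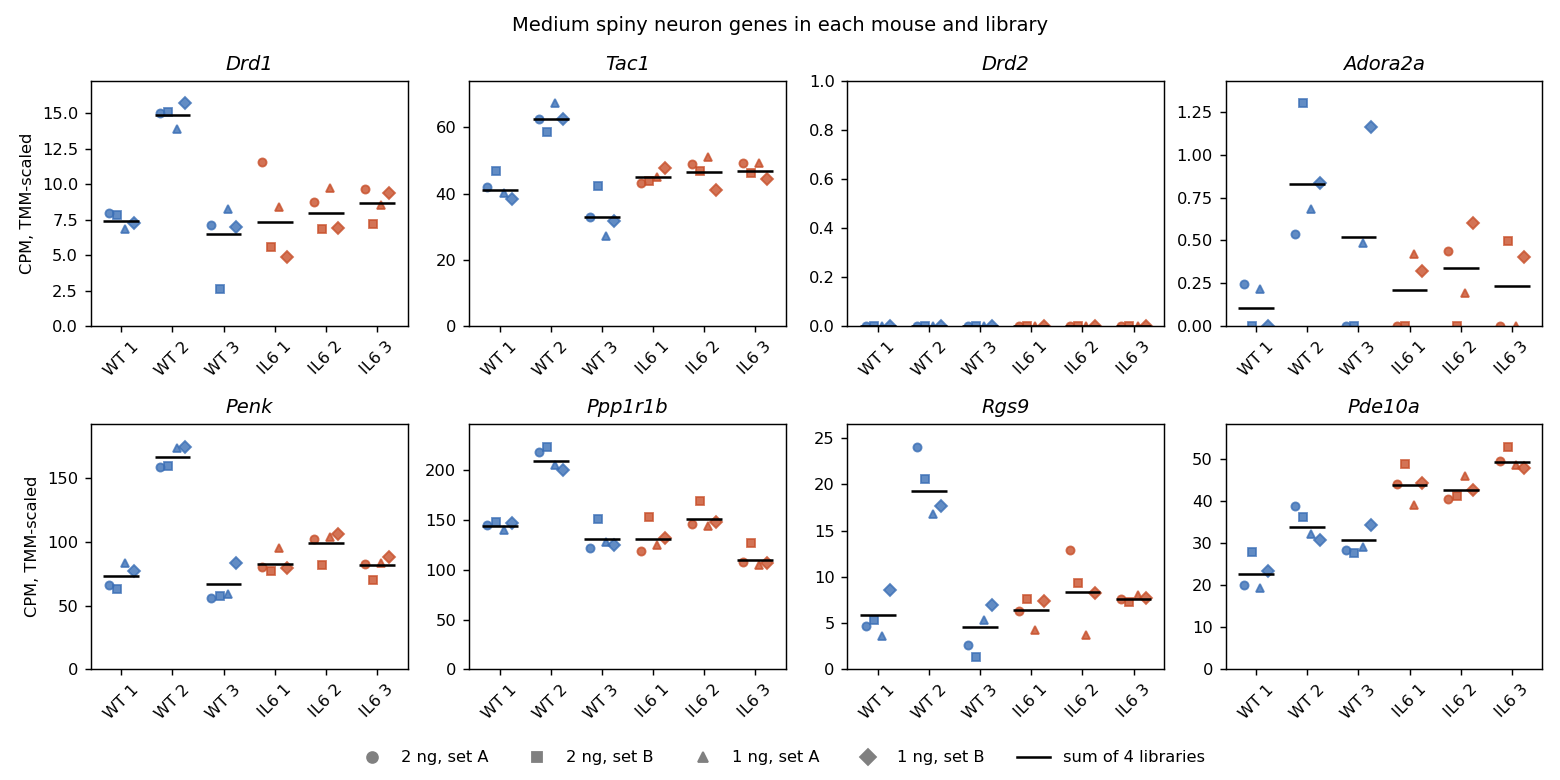
Levels of the 8 genes in CPM (TMM-scaled, linear axes from 0), by mouse, with WT mice in blue and GFAP-IL6 mice (labelled IL6) in red. Symbols are the 4 libraries of a mouse, and the black line is the level of their sum. For Drd1, Tac1, Penk, Ppp1r1b and Rgs9 the 4 libraries of WT mouse 2 lie above the lines of all other mice, for Pde10a the GFAP-IL6 libraries (39.0 to 53.0 CPM) lie above the WT libraries (19.3 to 38.9 CPM), and Drd2 is at 0.

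The high levels of WT mouse 2 were seen again in each set of libraries. Drd1, Tac1, Penk, Ppp1r1b and Rgs9 were highest in WT mouse 2 in 4 of 4 sets, where Penk exceeded the next mouse 1.56- to 1.96-fold, Rgs9 1.87- to 2.19-fold, Drd1 1.29- to 1.93-fold, Ppp1r1b 1.33- to 1.49-fold and Tac1 1.24- to 1.32-fold. The 4 libraries of a mouse share its RNA, so the sets are no independent samples of the tissue. Adora2a was highest in WT mouse 2 in 3 sets, on at most 5 counts per library. By contrast, Pde10a was highest in GFAP-IL6 mouse 3 in all 4 sets. Of all 14621 genes tested between genotypes, 12.6% were highest in WT mouse 2, against 5 of the 6 tested members. The members were chosen with earlier results of these data known, so this is a description and no test. Among the 10737 tested genes with a mean of at least 5 CPM, 5 exceeded the next mouse by more than 1.5-fold in WT mouse 2. They were Rgs9, Rxrg, Drd1, Penk and RP24-487F9.4, named for this measure after their values were seen. Rxrg, a retinoid receptor gene of striatal neurons, was at 13.8 CPM in WT mouse 2 and between 4.53 and 6.82 CPM in the other mice. The same measure gave 42 genes in WT mouse 3, led by the choroid plexus gene Ttr, and between 1 and 9 in the other 4 mice.

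Other striatal projection neuron genes had the same order of mice more often than not. Of 30 such genes with a row of counts, 23 were tested and 17 were highest in WT mouse 2, with a median difference of 0.314 (log2 CPM, WT mouse 2 minus the mean of the other 5) against 0.00868 over all tested genes. This list and those below were chosen with earlier results of these data known, so their counts are descriptions and no test. Gng7, the gamma subunit that couples striatal receptors to adenylyl cyclase, was at 58.7 CPM in WT mouse 2 and between 29.4 and 40.7 CPM in the others. The orphan receptor gene Gpr6, of the indirect pathway, was at 6.65 CPM there and between 1.04 and 3.04 CPM in the others. Syndig1l was at 5.21 CPM in WT mouse 2 and at 0.417 to 2.26 CPM elsewhere. Genes of the list with more even levels included the prodynorphin gene Pdyn (23.2 CPM in WT mouse 2, 24.2 to 26.1 CPM elsewhere), Foxp1 (132 CPM and 127 to 155 CPM) and the striatal phosphatase gene Ptpn5 (187 CPM and 150 to 189 CPM). Within the sets, 9 to 15 of the 23 were highest in WT mouse 2, against 13.9% to 15.4% of all tested genes.

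Of the lists for other cells and pathways, the cortical excitatory and interneuron lists were near the level of the other mice in WT mouse 2, the oligodendrocyte list was higher, and the microglia and choroid plexus lists were lower. The median difference of the 6 microglial markers was -0.455 in log2 CPM and that of the 5 choroid plexus markers -0.61, beside high levels of the former in the GFAP-IL6 mice and of the latter in WT mouse 3. Of 11 cortical excitatory markers 1 was highest in WT mouse 2 (median difference -0.0035 in log2 CPM), and of 12 GABA interneuron markers 3 (0.00789). Of 18 genes of G protein, cAMP and phosphatase signalling 7 were highest there, with a median difference of 0.0595, and 4 of the 7 (Gng7, Gnal, Adcy5 and Pde1b) also stand in the striatal list. Of 7 tested genes for peptide processing and for the receptors of enkephalins and tachykinins 2 were highest there. Oligodendrocyte markers were highest in WT mouse 2 for 5 of 6 genes, with a median difference of 0.340 in log2 CPM. Their summed level was 8640 CPM in WT mouse 2, 8300 CPM in GFAP-IL6 mouse 3, 7570 CPM in WT mouse 3 and 5550 to 6730 CPM in the others, and their part in the striatal levels was not tested. Markers of cholinergic interneurons, which also lie in the striatum, summed to 1.77 CPM in WT mouse 2 and to 0.622 to 1.70 CPM elsewhere, and none of the 5 passed the filter. In these bulk samples a larger number of cells and more RNA per cell cannot be told apart, and the part of the dissection in these levels was not tested.

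**Figure D2:**
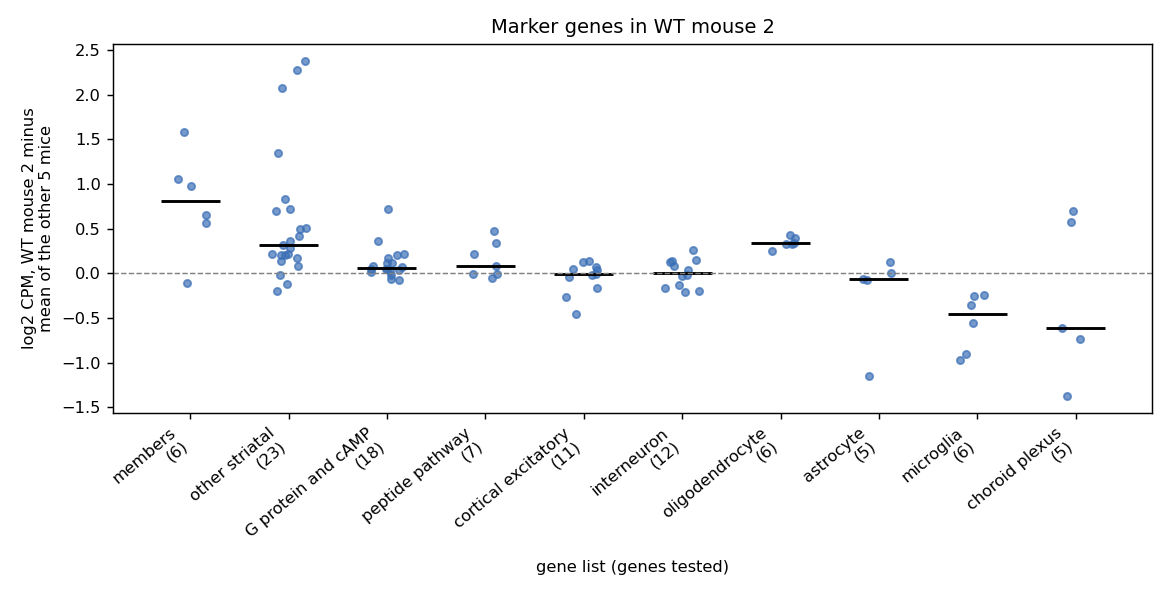
Difference in log2 CPM between WT mouse 2 and the mean of the other 5 mice (vertical axis) for each tested gene of 10 gene lists (horizontal axis, genes tested in brackets). Points are genes and black lines are medians. The medians are 0.814 for the members, 0.314 for other striatal genes and -0.0035 for cortical excitatory markers, and the one member below 0 is Pde10a.

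Between genotypes, Pde10a was the only member of the 6 tested that was called by edgeR over the mouse sums. It rose in the GFAP-IL6 mice by 0.65 on the log2 scale (SE 0.13, 95% interval 0.36 to 0.93, adjusted p = 0.01689 by edgeR's quasi-likelihood test), from 29.0 ± 5.77 CPM to 45.2 ± 3.46 CPM (SD, n = 3 each). At an adjusted p under 0.05, 1 of 6 tested members was called, against 1.8% of all genes (263 of 14621). None of the 6 was a DEG by the rule that also asks for an absolute log2 fold change above 1 (no member by DESeq2 either, and 1 at an unadjusted p under 0.05), against 1.23% of all genes. Pde10a was the only member without overlap between genotypes, a separation in that direction found for 8.41% of all tested genes, and the exact two-sided permutation test over the 20 regroupings of the mice gave p = 0.1, the smallest that 3 against 3 allows.

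The rise of Pde10a was of like size in each set. With 2 ng it was 0.63 in set A (adjusted p = 0.1334, edgeR) and also 0.63 in set B (0.04228), where 1.03% and 1.08% of all genes tested were called. With 1 ng it was 0.76 in set A (0.02325) and 0.64 in set B (0.04244), where 1.1% and 1.08% were called. In all 4 sets each GFAP-IL6 library exceeded each WT library. The sets hold the same mice, so they are no independent replicates of the genotype. DESeq2 called no member within a set, with adjusted p between 0.05926 and 0.5303 for Pde10a. The call over the mouse sums was lost without WT mouse 1 (0.48, adjusted p = 0.06462, edgeR) and without GFAP-IL6 mouse 3 (0.58, 0.1229). Without WT mouse 2 it was 0.79 with an adjusted p of 0.01295 by edgeR. Microglial markers, all 6 of which rose (adjusted p at most 0.02294, edgeR), moved with it, summing to 166 to 183 CPM in the WT mice and 278 to 381 CPM in the GFAP-IL6 mice, with none at 0. Their part in the level of Pde10a was not tested.

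The other 5 members did not pass the test. The sign of Drd1, Penk and Rgs9 turned when WT mouse 2 was left out, and Tac1 lay near 0 with all mice. Drd1 differed by -0.29 on the log2 scale (95% interval -0.81 to 0.23, adjusted p = 0.8354, edgeR), Penk by -0.23 (-0.75 to 0.28, 0.879), Rgs9 by -0.46 (-1.24 to 0.33, 0.8273) and Tac1 by -0.0020 (-0.35 to 0.34, 0.9998). Without WT mouse 2 the differences were 0.20 for Drd1, 0.33 for Penk, 0.50 for Rgs9 and 0.30 for Tac1, all above 0, with adjusted p between 0.402 and 0.9242 by edgeR. The genotypes overlapped in all 4 genes. For Ppp1r1b the difference was -0.31 (95% interval -0.63 to 0.0059, adjusted p = 0.5805, edgeR) with all mice and -0.080 (adjusted p = 0.9499) without WT mouse 2. It was called lower by limma-voom over the 24 libraries (-0.35, adjusted p = 0.0157) and by edgeR without the filter on low counts (-0.31, adjusted p = 0.04699). These fits called 453 of 12146 and 462 of 20629 genes. The 24 libraries share 6 mice, and limma-voom took the same correlation within a mouse for all genes. The p-value of limma-voom thus does not rest on the spread of Ppp1r1b between mice alone. Its SE was 0.092, against 0.15 by edgeR over the mouse sums. The spread among WT mice was wider than that among GFAP-IL6 mice for these 5 genes, as for Penk with 102 ± 56.4 CPM against 88.1 ± 9.93 CPM (SD, n = 3), and this difference in spread was not tested.

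**Figure D3:**
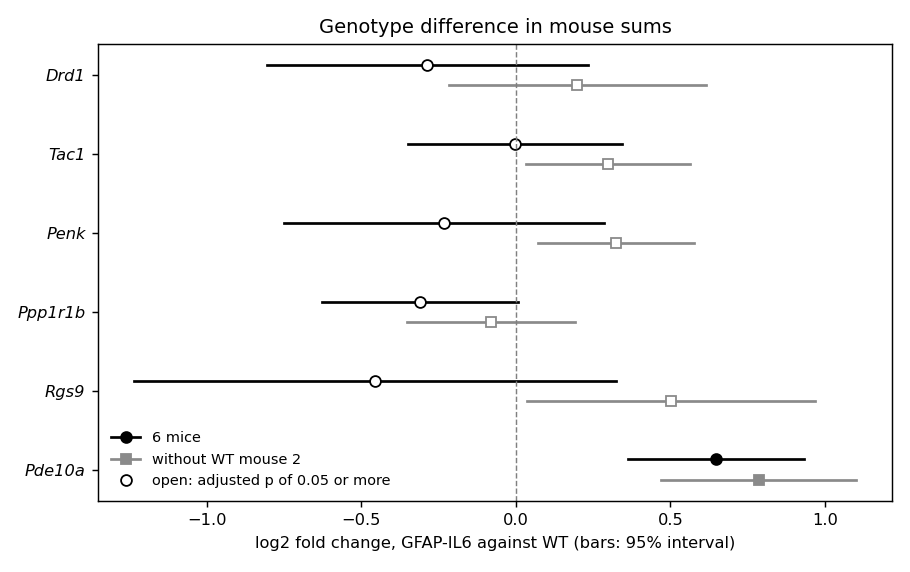
Log2 fold change of GFAP-IL6 against WT (horizontal axis, 0 dashed) for the 6 tested members, over 6 mice (black circles) and without WT mouse 2 (grey squares). Bars are 95% intervals and filled symbols have an adjusted p under 0.05 by edgeR. Pde10a is at 0.65 and 0.79, whereas Drd1, Tac1, Penk and Rgs9 move from below 0 to above 0.

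Genes around the members in their pathways did not pass edgeR's test of the mouse sums between genotypes. Of 23 other striatal genes none was called by it, with 3 at an unadjusted p under 0.05 (Scn4b, Rasd2 and Pde1b, all lower). DESeq2 called none of the 29 it tested. The sodium channel subunit gene Scn4b was at 34.7, 43.4 and 43.8 CPM in the WT mice and at 26.7, 35.2 and 25.6 CPM in the GFAP-IL6 mice, with overlap, and its log2 fold change was -0.47 (adjusted p = 0.1223, edgeR). It was called lower by edgeR without the filter on low counts (-0.47), by edgeR without GFAP-IL6 mouse 2 (-0.63), and by limma-voom over the 24 libraries (-0.47). Limma-voom also called the peptide processing gene Cpe higher (0.10) and the interneuron gene Sst lower (-0.22). These calls of limma-voom rest on libraries that share 6 mice, and 453 of 12146 genes were called by it. The median log2 fold change of the 23 striatal genes was -0.13 with all mice, beside -0.0069 over all tested genes. Without WT mouse 2 the median was 0.071 over the 25 striatal genes then tested. Of the 18 signalling genes none was called by edgeR or DESeq2 (2 at an unadjusted p under 0.05 by edgeR, median -0.063). Of the peptide pathway genes edgeR called none of the 7 it tested (0 at an unadjusted p under 0.05, median -0.030). DESeq2 called none of the 10 it tested (1 at an unadjusted p under 0.05). Pde1b, a calmodulin-dependent phosphodiesterase of the same neurons, was at 48.3 to 59.6 CPM in the WT mice and at 41.0 to 49.4 CPM in the GFAP-IL6 mice, a log2 fold change of -0.25 (adjusted p = 0.5056, edgeR), opposite in sign to that of Pde10a. Of the 11 cortical excitatory and 12 interneuron markers none was called by edgeR or DESeq2, with 1 and 0 at an unadjusted p under 0.05.

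The amount of cDNA and the library set moved the members little. No member was called between 2 ng and 1 ng by edgeR or DESeq2 without the mouse in the model. The main edgeR fit called 12.3% of all genes there. At an unadjusted p under 0.05 there were 0 members by that fit and by DESeq2. Penk had an unadjusted p of 0.014 by edgeR without the filter on low counts and 0.013 without WT mouse 2 (adjusted 0.1157 and 0.1086). Between sets A and B none was called either (again 0 at an unadjusted p under 0.05), where 6.98% of all genes were. The amounts and sets were compared in libraries of the same mice, so p-values of these comparisons do not rest on independent samples. With the mouse as a block, Penk was lower with 2 ng by 0.20 on the log2 scale (adjusted p = 6.807e-07, edgeR), and it was lower in 6 of 6 mice, as with 64.5 against 80.4 CPM in WT mouse 1 and 91.9 against 105 CPM in GFAP-IL6 mouse 2. Ppp1r1b was higher with 2 ng by 0.095 (adjusted p = 0.006543) in 6 of 6 mice, and lower in set A than in set B by 0.092 (adjusted p = 0.04776), though by less than 1 CPM in WT mouse 2. The same block raised the number of all genes called from 1696 to 4452 (32.4%) between amounts and from 972 to 3217 (23.1%) between sets, beside which 2 of 6 and 1 of 6 members are near the background. The genotype differences of the 6 members did not differ between amounts or between sets at any unadjusted p under 0.05 (smallest 0.1151, edgeR). After adjustment 0.0% of all 12146 genes passed in either test (254 and 645 at an unadjusted p under 0.05), so the members do not stand apart in this.

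Across the 6 mice, Drd1, Tac1, Penk and Rgs9 varied together, and Pde10a correlated weakly with them. The r of Pde10a with them was higher without WT mouse 2, where it cannot be told apart from the genotype difference. The 7 members with counts gave 21 pairs, of which 5 had a Pearson correlation past an adjusted p of 0.05 (exact permutation test over 720 pairings, two-sided, Benjamini-Hochberg over the 21 pairs), each with an adjusted p of 0.0233. These were Penk with Rgs9 (r = 0.986, permutation p = 0.00278), Drd1 with Rgs9 (0.980, 0.00556), Tac1 with Rgs9 (0.952, 0.00278), Penk with Tac1 (0.919, 0.00556) and Drd1 with Tac1 (0.913, 0.00417). By Spearman's rho, which gives WT mouse 2 no more weight than its rank, the same pairs had 0.943, 0.886, 0.943, 0.829 and 0.943, and no pair passed after adjustment (smallest adjusted permutation p = 0.117). The pair of Drd1 and Penk, 1 gene of each pathway, had r = 0.951 (permutation p = 0.0194, adjusted 0.0681) and rho = 0.714 (permutation p = 0.136, adjusted 0.408). The share of pairs of all tested genes with such a Pearson correlation was not determined, so the 5 of 21 has no background beside it.

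The r among Drd1, Tac1, Penk and Rgs9 was lower without WT mouse 2, and r with mice left out was not tested. Among the mice other than WT mouse 2, WT mice 1 and 3 were the lowest in Tac1, Penk and Rgs9. The r without WT mouse 2 therefore includes the genotype difference. With the 2 mice farthest from the median of the first gene left out (WT mice 2 and 3 for these pairs), r over 4 mice was 0.865 for Penk and Rgs9, 0.735 for Drd1 and Rgs9, 0.864 for Tac1 and Rgs9, 0.734 for Penk and Tac1, and 0.694 for Drd1 and Tac1. It was 0.298 for Drd1 and Penk. Without WT mouse 2 alone, r over 5 mice stayed between 0.821 and 0.931 for those 5 pairs and was 0.659 for Drd1 and Penk. Ppp1r1b differed from them. Its r with Drd1, Tac1, Penk and Rgs9 was 0.641 to 0.842 over 6 mice (adjusted permutation p between 0.188 and 0.337), and without WT mouse 2 it was -0.358 with Drd1, -0.0872 with Tac1, 0.263 with Penk and -0.00609 with Rgs9. With the 2 farthest mice left out it was -0.636 with Drd1 (without WT mice 2 and 3), and 0.554 with Tac1, 0.643 with Penk and 0.741 with Rgs9 (without WT mouse 2 and GFAP-IL6 mouse 3). The relation of Ppp1r1b with Drd1, Tac1 and Rgs9 was thus not kept once WT mouse 2 alone was left out.

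Within each set r was taken over libraries of the same 6 mice, with WT mouse 2 included. That mouse was highest for Drd1, Tac1, Penk, Ppp1r1b and Rgs9 in 4 of 4 sets. The sets are therefore no independent evidence that these genes vary together. The r within a set without WT mouse 2 was not determined. Over the 10 pairs of Drd1, Tac1, Penk, Ppp1r1b and Rgs9, grouped after their values were seen, r was positive in all 10 in each of the 4 sets, beside a median of 0.916 over the mouse sums. With 2 ng the median was 0.807 in set A and 0.824 in set B, and with 1 ng it was 0.732 and 0.804. Over the 24 libraries, which share 6 mice, these pairs had r between 0.399 and 0.791, given as a description. Adora2a, on its few counts, had r between 0.153 and 0.641 with the others, and 5 of its 6 pairs were negative without WT mouse 2. Pde10a had r between -0.332 and 0.298 over 6 mice (adjusted permutation p at least 0.691). Without WT mouse 2 its r over 5 mice was 0.598 with Drd1, 0.638 with Penk, 0.604 with Tac1, 0.653 with Rgs9 and -0.480 with Ppp1r1b. With WT mice 2 and 3 left out, its r over 4 mice was 0.599 with Drd1, 0.618 with Penk, 0.972 with Tac1 and 0.723 with Rgs9. The r with mice left out was not tested. In Pde10a, Tac1, Penk and Rgs9 the WT mice that remained lay below all GFAP-IL6 mice, a difference which such r includes. With the genotype means taken off, r of Pde10a was 0.584 with Drd1, 0.522 with Penk, 0.524 with Rgs9, 0.384 with Tac1 and 0.248 with Ppp1r1b, again a description over 6 mice.

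**Figure D4:**
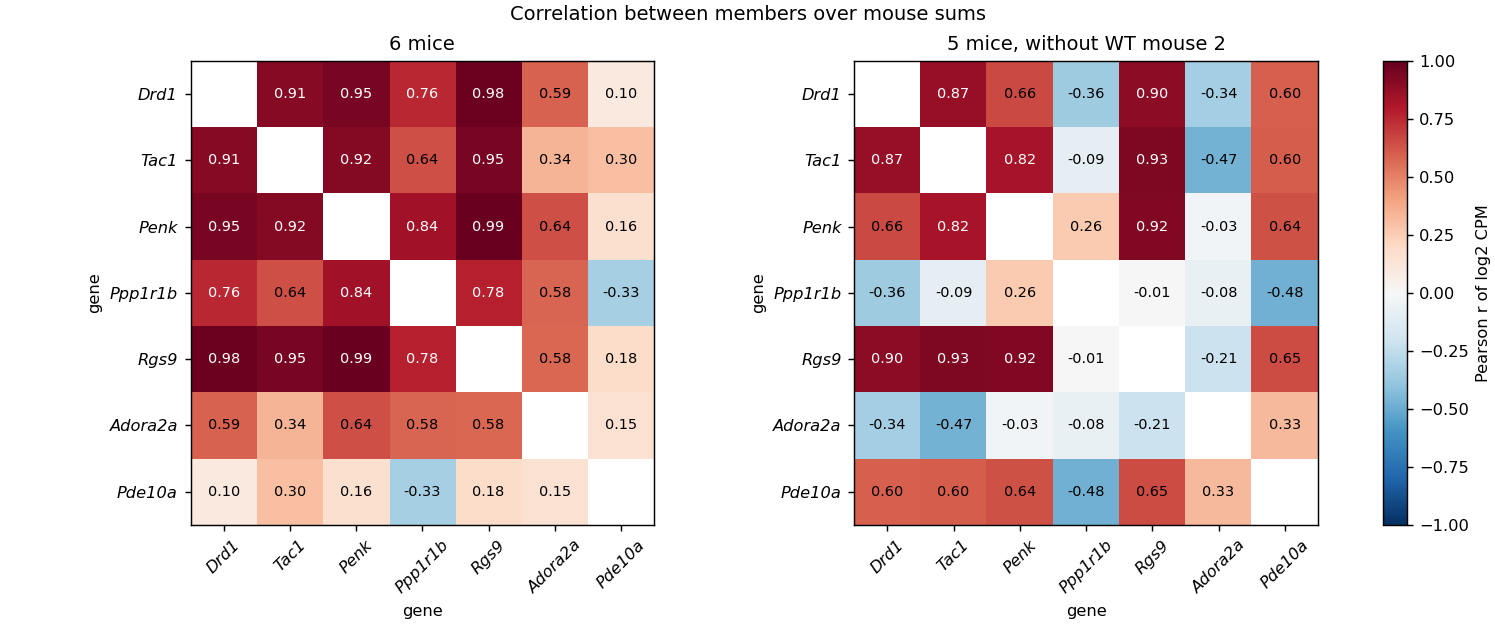
Pearson r of log2 CPM between the 7 members with counts, over the sums of 6 mice (left) and without WT mouse 2 (right). Rows and columns are genes, and colour runs from -1 (blue) to 1 (red). Drd1, Tac1, Penk and Rgs9 keep r of 0.66 or more among themselves without that mouse, Ppp1r1b does not, and Pde10a, between -0.33 and 0.30 on the left, is between 0.60 and 0.65 with those 4 genes on the right. The r on the right was not tested and includes the genotype difference.

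The members differed more between mice than genes of like count usually did. The SD between mouse means was 0.816 for Rgs9, 0.491 for Penk, 0.451 for Drd1, 0.421 for Pde10a, 0.312 for Ppp1r1b and 0.297 for Tac1 (log2 CPM, 6 mice of both genotypes together). The genotype difference is thus part of this SD, as for Pde10a, which rose in the GFAP-IL6 mice. The SD between the 4 libraries of a mouse was 0.579 for Rgs9 and 0.395 for Drd1, where counting alone gives 0.370 and 0.299. These are the tested members with the fewest counts, 1025 and 1033 over all libraries. It was 0.114 to 0.175 for the other 4 members. The ratio of the SD between mice to that within a mouse was 2.88 for Pde10a, 2.81 for Penk, 2.73 for Ppp1r1b, 2.11 for Tac1, 1.41 for Rgs9 and 1.14 for Drd1, against medians of 0.588 to 0.744 over the genes within 1.2-fold of each member's total count. Of those genes 91.9% (Drd1) to 99.8% (Pde10a) had a lower ratio.

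The genes whose levels over the 24 libraries were most like the mean of the 7 members, each standardized in log2 CPM, included 3 of the striatal list. Among 10731 genes with a mean of at least 5 CPM the 10 with the highest Pearson r were Gng7 (0.813), Myoc (0.767), Acta2 (0.719), Dmkn (0.712), Pcp4l1 (0.700), Rxrg (0.697), Tmem29 (0.682), Rarb (0.667), Ddr1 (0.664) and Tesc (0.652). The other genes of the striatal list ranked from 89 (Gnal, r = 0.528) to 9930 (Pdyn, r = -0.289). Foxp1 (-0.092) and Adra2c (-0.134) were also below 0. Rarb, a retinoic acid receptor gene, was at 10.6 CPM in WT mouse 2 and between 4.01 and 8.0 CPM elsewhere. Acta2, the smooth muscle actin gene of blood vessels, was at 28.8 CPM in WT mouse 2 and at 8.74 to 24.5 CPM elsewhere, and Myoc, known from cells of the meninges and the eye, was at 15.7 CPM there and at 5.22 to 11.0 CPM elsewhere. The 3 lowest were Egr1, an activity-dependent transcription factor gene (r = -0.801, 249 CPM in WT mouse 2 and 294 to 350 CPM elsewhere), Sntb2 (-0.676) and Lrrc8a (-0.673). These correlations are descriptions over libraries that share 6 mice.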

How the data were processed

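The authors removed polyA from the read ends, used STAR 2.4 for alignment to mm10, and took gene counts over GENCODE vM6 from featureCounts. The deposited table holds raw counts per gene and library, not normalized, with gene lengths. Counts were summed over the 4 libraries of each mouse and tested with edgeR 4.0.16 in R 4.3.3 (TMM, filterByExpr, quasi-likelihood test, Benjamini-Hochberg over all genes tested), with genotype in the model for amounts and sets. DESeq2 1.42.0 and limma 3.58.1 were alternatives. CPM were TMM-scaled, with a prior count of 1 on the log2 scale. Correlations and exact tests used scipy 1.17.1, pandas 2.3.3 and numpy 2.4.6 in Python 3.11.15. The named genes were the 8 members, the 10 most and 3 least like them over the 24 libraries, and list genes given for their values. The members and lists were chosen with earlier results of these data known. Positions and sequences are from GENCODE vM21 (32593 of the 33000 genes matched). Library totals ran from 1524165 to 12256374 counts, where 3 counts are 1.97 and 0.245 CPM. The alternatives were other scalings and filters, equal totals, a prior count of 5, blocks of mice or of same-numbered mice, and leaving out each mouse. Fitted fold changes used edgeR's default prior count of 0.125, which was therefore no alternative.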

Additional observations from a re-analysis of the deposited data

Results flagged for a closer look

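In 6 of 36 sets of 4 libraries from 1 mouse, for the 6 tested members, a library lay apart from the other 3 by Dixon's criterion at the 95% level, which chance meets in about 1 in 20. Drd1 in WT mouse 3 was at 2.64 CPM in 2 ng set B, on 4 counts, against 6.95 to 8.27 CPM in the other libraries. Ppp1r1b in 2 ng set B was at 169 CPM in GFAP-IL6 mouse 2, against 144 to 148 CPM, and at 127 CPM in GFAP-IL6 mouse 3, against 105 to 108 CPM. Penk was at 83.4 CPM in 1 ng set B of WT mouse 3, against 56.4 to 59.4 CPM, at 95.2 CPM in 1 ng set A of GFAP-IL6 mouse 1, against 77.3 to 80.0 CPM, and at 81.7 CPM in 2 ng set B of GFAP-IL6 mouse 2, against 102 to 106 CPM.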

How the results depend on the processing

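The genotype difference of Pde10a kept its sign under all 15 alternatives over mouse sums (0.48 to 0.79) and its call under 13, lost without WT mouse 1 and without GFAP-IL6 mouse 3. The members called numbered 1, and 0 to 1 when a mouse was left out, 2 without a filter and 2 by limma-voom, where Ppp1r1b was added as lower. Over all genes, 263 of 14621 were called in the main test, 462 of 20629 without a filter and 453 of 12146 by limma-voom. With a mouse left out it was 146 of 14854 (without GFAP-IL6 mouse 3) to 321 of 14968 (without GFAP-IL6 mouse 1). The DEGs numbered 180, fell to 109 after down-sampling to equal totals, and ranged from 106 (without GFAP-IL6 mouse 3) to 201 when a mouse was left out. With a mouse left out the log2 fold change ran from -0.48 to 0.20 (Drd1), -0.44 to 0.33 (Penk), -0.77 to 0.50 (Rgs9) and -0.16 to 0.30 (Tac1), in each case highest, and above 0, without WT mouse 2. That of Tac1, near 0, was also above 0 by DESeq2 (0.00054), with library totals only (0.028), with at least 10 counts in every mouse (0.0038), after down-sampling (0.10) and without GFAP-IL6 mouse 1 (0.0075). Without the filter, 2 members were called in 2 ng set A, beside 199 of all 18752 genes. DESeq2 called 0 members in 2 ng set B, 1 ng set A and 1 ng set B. Over all genes it called 88 of 18790, 111 of 18677 and 115 of 19056 there.

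Same-numbered mice did not deviate together (r of -0.052, -0.037 and -0.068), so their number is not a pairing. The replicate block over these numbers gave 149 DEGs, a log2 fold change of 0.048 for Tac1, and 59 DEGs in 2 ng set B. It called 0 members in 2 ng set B and in 1 ng set B, beside 83 of 12233 and 97 of 12974 genes. With the mouse as a replicate block, where libraries share an animal, 4452 genes and 2 members were called between amounts, and 3217 genes and 1 member between sets. Leaving out a mouse gave 576 (without WT mouse 2, and 625 without GFAP-IL6 mouse 2) to 1087 genes between sets. Between amounts Drd1, near 0, turned to 0.00064 with DESeq2 size factors and ran from -0.055 to 0.035 with a mouse left out, and between sets Penk ran from -0.0094 (without GFAP-IL6 mouse 1) to 0.049. The median r over the 10 pairs of 5 members was 0.740 (without WT mouse 2) to 0.961 (without GFAP-IL6 mouse 3) when a mouse was left out. The median ratio of spread over the tested members was 2.42, and 2.24 to 2.42 under both alternatives. The cause of these changes was not tested. Adora2a and Drd2 had too few counts to be tested.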
